A study of Mus musculus with 3 samples.

Results

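The 10 genes described here encode the receptors of the TIGIT, LAG3, TIM and CD200 groups, together with the ligand gene Cd200. They are Tigit, Cd96, Cd226, Pvrig, Lag3, Havcr1, Havcr2, Cd160, Cd200 and Cd200r1, and were taken by symbol from the 55536 annotated genes of the larger gene table. Polyadenylated RNA of activated regulatory T cells (the Foxp3-expressing CD4 T cells that restrain immune responses) was sequenced in 3 libraries from 1 male mouse aged 9 weeks. Labels give them as technical replicates 1, 2 and 3 of a single biosample, and there was no second condition. Every SD below, with n = 3 libraries, is therefore technical and says nothing of the spread between animals. The sources used here do not give the strain, the tissue, the activating stimulus or the sorting gate. The libraries held 31445344, 32612609 and 37259281 expected counts. Levels are in TPM (transcript abundance corrected for length and scaled to the same total in every library), and a gene was called detected from 1 TPM in all 3 libraries.

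Tigit, Cd96, Cd226 and Pvrig belong to one group of immunoglobulin-type receptors that read nectins and nectin-like molecules on neighbouring cells. Tigit and Cd226 compete for the ligand Pvr, Tigit as an inhibitory receptor and Cd226 as a costimulatory one, and Pvrig is an inhibitory receptor for Nectin2. Lag3 is a relative of Cd4 that binds MHC class II. Havcr2 encodes TIM-3, an inhibitory receptor of activated T cells and myeloid cells, and Havcr1 encodes TIM-1, a phosphatidylserine receptor. Cd160 is a lipid-anchored receptor for the ligand encoded by Tnfrsf14, and Cd200 is a membrane ligand that restrains cells carrying its receptor Cd200r1. In regulatory T cells Tigit and Lag3 are known for contributing to suppression.

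Several of these receptors signal through short motifs near the end of the protein, and the coding sequences of some of those stretches are shown. The sequences are from GENCODE M21 transcripts on mm10, 5′ to 3′ in the coding direction, with the codons of the motif in capitals. An immunoreceptor tyrosine-based inhibitory motif (a docking site for phosphatases) was found in the last 100 codons of Tigit-201 at codons 226 to 231 of 241 (chr16:43649022-43649063, minus strand, exonic). The same search found one in Cd96-201 at codons 581 to 586 of 602 (chr16:46035912-46035953, minus strand, exonic). The NPxY tyrosine motif of the Cd200r1 tail, which recruits Dok adaptors, lay at codons 294 to 297 of 326 (chr16:44794227-44794262, plus strand, exonic). The KIEELE motif characteristic of Lag3 lay at codons 490 to 495 of 521 (chr6:124904511-124904552, minus strand, exonic).
Tigit: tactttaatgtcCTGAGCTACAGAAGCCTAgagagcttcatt
Cd96: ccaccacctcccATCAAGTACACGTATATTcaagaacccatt
Cd200r1: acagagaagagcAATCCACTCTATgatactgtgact
Lag3: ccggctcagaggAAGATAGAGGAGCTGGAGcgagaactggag
In the last 100 codons of the longest complete coding sequence of 21745 genes, the inhibitory motif was found in 16.5%, NPxY in 0.782% and KIEELE in 3 genes, or 0.0138%. Of the 10 receptor and ligand genes, 2 held the first, 1 the second and 1 the third. A match to the inhibitory pattern is thus common, and is a description of these letters rather than a site shown to work. A further pattern, YxN, was found in 10.1% of the genes and in 4 of the 10 (Tigit, Cd96, Cd226 and Havcr2). Its stretches are not shown.

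Of the 10 genes, 9 were detected, beside 47.3% of the 22028 protein-coding genes. The levels ran from 113 TPM for Cd96 to 0 counts for Havcr1, against a median of 29.2 TPM over the 10429 detected protein-coding genes. In descending order of mean TPM came Cd96, Tigit, Cd226, Cd200, Cd200r1, Pvrig, Havcr2, Lag3, Cd160 and Havcr1. Of the 8 neighbouring pairs in that order for which a ratio exists, 4 differed by more than the spread, taken as 3 log2 ratios of the same sign with a mean above 2 SD. No p-value was computed for such ratios, because with 3 libraries the smallest p that exact sign-flipping allows is 0.25. Because the libraries are bulk RNA, few cells with much RNA of a gene and many cells with little cannot be told apart.

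**Figure D1:**
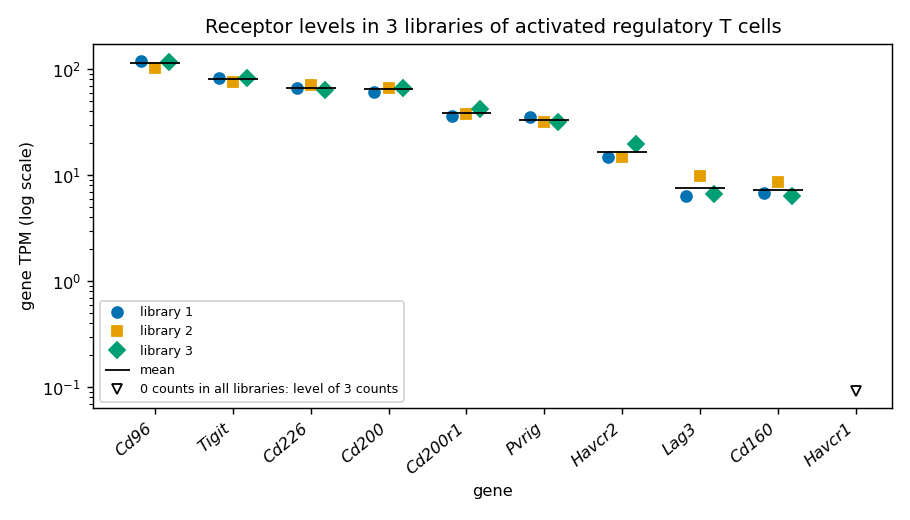
Gene TPM (log axis) of the 10 genes in libraries 1, 2 and 3, with the mean as a line. The points of 9 genes lie between 6.32 and 120.5 TPM, and the open triangle marks the 0.0914 TPM that 3 counts of Havcr1 would give.

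Among the nectin receptors, Cd96 was the most abundant. Cd96 (ENSMUSG00000022657.9, chromosome 16, 46035657 to 46120251, minus strand) stood at 120.5, 102.9 and 116.7 TPM in libraries 1, 2 and 3. Library 2 was the lowest of the 3, and the mean of 113 ± 9.29 TPM placed the gene above 84.9% of detected protein-coding genes. Tigit (ENSMUSG00000071552.5, chromosome 16, 43648867 to 43664146, minus strand) had 81.7, 75.5 and 82.6 TPM, a mean of 79.9 ± 3.84, again lowest in library 2. The lowest Cd96 value lay above the highest Tigit value, and Cd96 exceeded Tigit by 0.50 ± 0.06 log2 units (SD, n = 3). Both genes have a single annotated transcript and their expected counts were whole numbers, so no read was split with another gene. Pvrig (ENSMUSG00000109713.1, chromosome 5, 138341961 to 138343557, plus strand), also with 1 transcript, had 35.3, 31.4 and 31.8 TPM and a mean of 32.8 ± 2.15. It lay below Tigit in every library, with a log2 ratio of -1.28 ± 0.08.

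Cd226, the costimulatory partner of Tigit, depended on how transcript length was taken. Its gene TPM (ENSMUSG00000034028.16, chromosome 18, 89176967 to 89272229, plus strand) was 66.0, 70.2 and 64.0, a mean of 66.7 ± 3.15. On this measure the Tigit to Cd226 log2 ratio of 0.26 ± 0.14 was within the spread, though Tigit was higher in all 3 libraries. Without library 2 it was 0.34 ± 0.04 and beyond the spread. Cd226, however, has 10 annotated transcripts, and much of its TPM fell on short ones. The longest, Cd226-207 (4494 bases, 333 codons), held 64.7% ± 2.72 of the expected counts but 26.3% ± 3.56 of the TPM. Cd226-209, an incomplete model of 408 bases, held 4.13% ± 0.345 of the counts and 20.6% ± 0.243 of the TPM. Cd226-205 (742 bases, 20.0% ± 0.570 of TPM) lies entirely within the exons of Cd226-207, and 76.2% of the bases of Cd226-209 do. The other transcripts above 5% of TPM were the incomplete Cd226-208 and the decay-type transcripts Cd226-203 and Cd226-210, with 10.5%, 6.18% and 7.23%.

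The level of Cd226 relative to Tigit differed between measures. The first pair of them was chosen after the transcript tables had been seen. Summed over complete coding transcripts alone, Cd226 stood at 28.94, 37.02 and 35.45 TPM, a mean of 33.8 ± 4.28. That sum still includes the short Cd226-205 (742 bases), with a mean of 13.4 TPM. With all Cd226 counts divided by the length of Cd226-207 the gene stood at 24.3, 28.4 and 28.6, a mean of 27.1 ± 2.41. Tigit then exceeded Cd226 by 1.25 ± 0.24 and 1.57 ± 0.17 log2 units, both beyond the spread. In whole-number counts of the smaller gene table per length, the log2 ratio was 1.14 ± 0.07. Counts there were 56.1% to 60.0% of the expected counts for Tigit but 28.8% to 34.7% for Cd226, which enters that ratio. The length used for it was the mean gene length in the larger table, so the ratio is not independent of that table. With no length correction Cd226 was the higher, with a log2 ratio of -0.78 ± 0.17. The 4494-base Cd226-207, which held most of its counts, is longer than the 919-base Tigit-201. Cd96 exceeded Cd226 by 0.76 ± 0.18 on gene TPM, and by more than the spread under every alternative run.

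**Figure D2:**
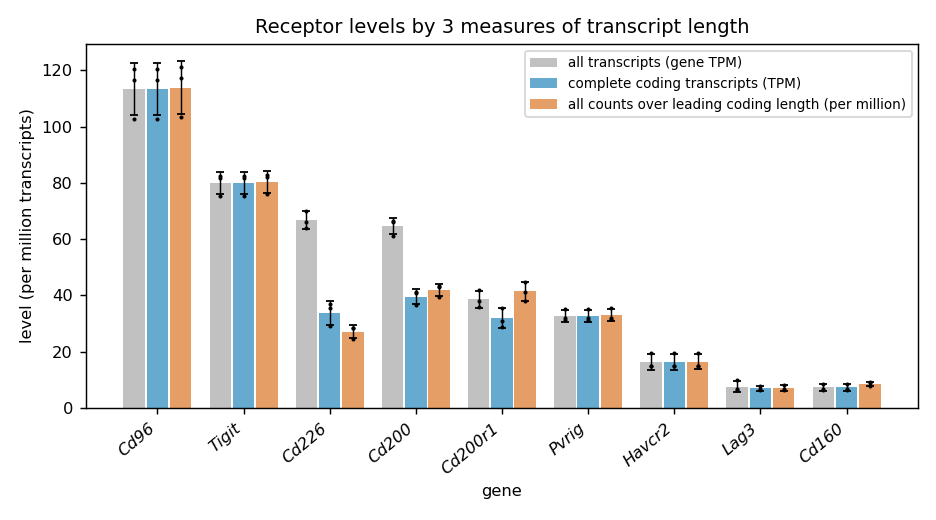
Levels of the 9 detected genes by gene TPM, by TPM of complete coding transcripts and by all counts over the length of the leading coding transcript. Bars are means from 0, whiskers are SD and dots are the 3 libraries. Cd226 falls from 66.7 to 33.8 and 27.1 and Cd200 from 64.6 to 39.6 and 41.8, while Cd96 (113 to 114) and Tigit (79.9 to 80.3) move little.

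Of the 5 nectin ligand genes, 1 was detected. Pvr, the shared ligand of Tigit, Cd96 and Cd226, had 27.67, 27.75 and 26.15 TPM, a mean of 27.2 ± 0.902. Nectin2, the ligand of Pvrig, had 0.25, 0.4 and 1.59 TPM and was above 1 TPM in library 3 alone. Nectin1, Nectin3 and Nectin4 had means of 0.237, 0.0600 and 0.0900 TPM. The libraries thus held transcripts of the nectin receptors, and of the ligand genes Pvr alone passed the detection rule. Others were not absent, as Nectin2 had 10, 22 and 75 expected counts and Nectin1 11, 48 and 26. Which cells held the ligand transcripts was not tested.

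Lag3 was low. It had 6.32, 9.74 and 6.65 TPM (ENSMUSG00000030124.2, chromosome 6, 124904361 to 124911705, minus strand), from 240, 331 and 303 expected counts, and a mean of 7.57 ± 1.89. Library 2 was the high one, and part of its excess lay on Lag3-202, a 426-base transcript with no coding sequence that took 1.92 TPM there and 0 in the other 2. On the coding transcript Lag3-201 the values were 6.32, 7.82 and 6.65 TPM, a mean of 6.93 ± 0.788. Tigit exceeded Lag3 by 3.43 ± 0.41 log2 units, or 10.8-fold. Cd4, which lies 16.1 kb from Lag3 on the same strand and encodes a related receptor, had 394 ± 15.9 TPM.

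The surroundings of Lag3 were mixed. Among 6 genes for Lag3 ligands, 4 were detected, namely Lgals3 at 81.7 ± 7.80 TPM and the MHC class II genes H2-Ab1 at 31.8 ± 8.53, H2-Eb1 at 25.5 ± 1.69 and H2-Aa at 24.5 ± 2.29. Fgl1 had a mean of 0.00667 TPM and Clec4g 0 counts in every library. MHC class II is a product of B cells and other antigen-presenting cells. The 7 B cell markers summed to 57.1, 44.5 and 45.5 TPM with 5 detected, and the 6 dendritic cell markers to 4.20, 3.74 and 3.63 TPM with 1 detected. For the 9 macrophage and monocyte markers the sums were 69.55, 65.85 and 67.23 TPM with 7 detected. The part of these cell types in the class II values was not tested. The sheddase genes Adam10 (80.6 ± 2.43 TPM) and Adam17 (63.0 ± 4.44 TPM), whose products cut Lag3 from the surface, both lay above Lag3.

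One of the TIM genes, Havcr2, was detected and the other, Havcr1, was not. Havcr2 (ENSMUSG00000020399.14, chromosome 11, 46454935 to 46481255, plus strand) had 14.7, 14.8 and 19.6 TPM, a mean of 16.4 ± 2.77. Library 3 stood above the other 2, which were nearly equal. Havcr1 (ENSMUSG00000040405.13, chromosome 11, 46735080 to 46779578, plus strand), 254 kb away, had 0 counts in each library over all 4 of its transcripts. A floor of 3 counts per library would be 0.0914 TPM on average, and the Havcr2 mean was 179-fold above that floor. The deposited upper credibility bounds for Havcr1 were higher than the floor, at 0.367, 0.348 and 0.310 TPM in libraries 1, 2 and 3. Against those bounds the fold would be smaller. The count of 0 also appeared in the smaller table. Timd2 and Timd4, the other TIM genes of this stretch of chromosome 11, were not detected, with means of 0.0800 and 0.830 TPM.

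Havcr2 exceeded Lag3 by 1.13 ± 0.48 log2 units. The ratio was 1.22, 0.607 and 1.557 in libraries 1, 2 and 3. Without library 1, the middle value, it was 1.08 ± 0.67 and within the spread, as libraries 2 and 3 lay furthest apart. In the smaller table it was -0.41 ± 0.26, of the other sign and within the spread. Pvrig exceeded Havcr2 by 1.01 ± 0.29 log2 units. Among the ligands of Havcr2, Lgals9 (258 ± 15.8 TPM) and Hmgb1 (180 ± 9.20 TPM) were abundant, and Ceacam1 (0.510 ± 0.295) was not detected. Macrophages also express Havcr2. The 9 macrophage and monocyte markers summed to 69.55, 65.85 and 67.23 TPM with 7 detected, led by Lyz2 at 21.1, 21.6 and 31.8 TPM. Like Havcr2, Lyz2 was highest in library 3, whereas 6 of the 9 markers were lowest there (Csf1r, Cd68, C1qa, C1qb, C1qc and Cd14), as C1qb at 12.4, 10.7 and 7.34 TPM. Their part in the Havcr2 value was not tested.

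All Havcr2 reads were assigned to Havcr2-201 (281 codons), with a count of 765.56 in library 1 that is not whole and so includes reads shared with another gene. The alternative Havcr2-202 had 0 counts in every library. It lacks 147 coding bases of Havcr2-201, bases 88 to 234 of the coding sequence (chr11:46456285-46456431, plus strand, exonic), in the amino-terminal part of the protein. The stretch is shown because it is the coding difference that the counts place in the RNA.
Havcr2-201: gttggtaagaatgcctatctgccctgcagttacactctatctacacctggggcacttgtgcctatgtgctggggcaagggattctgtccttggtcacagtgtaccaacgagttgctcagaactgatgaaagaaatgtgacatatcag

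Cd160 stood close to Lag3 near the bottom of the order. Its values (ENSMUSG00000038304.14, chromosome 3, 96798763 to 96829351, minus strand) were 6.80, 8.57 and 6.38 TPM, from 160, 200 and 220 expected counts, with a mean of 7.25 ± 1.16. Lag3 and Cd160 did not differ beyond the spread, with a log2 ratio of 0.05 ± 0.15 whose sign changed between libraries. In the smaller table per length Lag3 was the higher, by 0.93 ± 0.08. With all counts over the leading coding length it was the lower, by -0.27 ± 0.13. Natural killer cells also express Cd160 and Cd226. The 7 natural killer markers summed to 6.68, 5.42 and 7.00 TPM with 3 detected. Those were Gzma, Eomes and Klrb1c, with means of 2.53, 1.85 and 1.15 TPM. Klrd1, Ncr1, Klre1 and Klra8 were not detected, with means of 0.720, 0.0933, 0.0300 and 0 TPM. The CD8 markers Cd8a (1.64 ± 0.594 TPM) and Cd8b1 (21.4 ± 0.893 TPM) were both detected. Their part in the Cd160 and Cd226 levels was not tested.

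The division of Cd160 reads between 2 transcripts with the same coding sequence varied between libraries. Cd160-201 held 86.0% ± 12.5 of the gene's TPM, and Cd160-202, which has the same 555 coding bases in a longer transcript, 9.21% ± 12.8, ranging from 0% in library 2 to 23.8% in library 3. Cd160-203 held 4.78% ± 1.08 of TPM and 9.18% ± 2.53 of counts. It lacks 132 bases, bases 410 to 541 of the 555 (chr3:96802277-96802408, minus strand, exonic), and keeps the reading frame. The missing stretch is shown because it takes in most of the carboxy-terminal end of the protein.
Cd160-201: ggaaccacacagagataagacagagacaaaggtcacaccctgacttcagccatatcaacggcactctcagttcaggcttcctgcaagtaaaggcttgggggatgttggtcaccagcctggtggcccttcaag
The ligand gene Tnfrsf14 was detected at 9.45 ± 1.20 TPM, and Btla, whose product binds the same ligand, at 48.8 ± 1.10 TPM. Cd160 overlaps Pdzk1 on the other strand by 68 bases, and Pdzk1 had 2.98, 0 and 0 expected counts.

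The ligand gene Cd200 and its receptor gene Cd200r1 were transcribed in the same libraries. Cd200 (ENSMUSG00000022661.14, chromosome 16, 45382135 to 45409053, minus strand) had 61.2, 66.1 and 66.4 TPM, a mean of 64.6 ± 2.89. Cd200r1 (ENSMUSG00000022667.18, chromosome 16, 44765736 to 44794978, plus strand) had 36.0, 38.1 and 41.9 TPM, a mean of 38.7 ± 3.01. Every Cd200 value lay above every Cd200r1 value, and the log2 ratio was 0.74 ± 0.07. The ratio differed between measures. It was 0.02 ± 0.07 with all counts over the leading coding length, which lowers Cd200 and raises Cd200r1 to 41.4, and 0.12 ± 0.09 in the smaller table, both within the spread. Over complete coding transcripts it was 0.32 ± 0.11, beyond the spread, at 39.6 ± 2.61 against 31.8 ± 3.55 TPM.

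Most of the noncoding TPM of Cd200 lay on 1 transcript model of 281 bases. Cd200-210, with 2 exons and no coding sequence, held 4.96% ± 0.420 of the Cd200 counts but 31.6% ± 2.53 of its TPM, and 163 of its bases are shared with Cd200-202. The full-length coding transcripts Cd200-202 (2347 bases, 278 codons) and Cd200-201 (2085 bases) held 45.2% ± 2.45 and 16.03% ± 1.56 of TPM, and 70.1% ± 3.51 and 22.0% ± 2.15 of counts. Cd200-202 was the higher in every library, with 25.98, 30.43 and 31.27 TPM against 10.58, 10.92 and 9.48. The 2 forms differ at the end of the coding sequence, in the part that codes for the cytoplasmic tail. Coding bases 803 to 834 of Cd200-202 (chr16:45392249-45392280, minus strand, exonic) are absent from Cd200-201, and are shown as the difference between the leading and the second coding form.
Cd200-202: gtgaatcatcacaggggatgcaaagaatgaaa

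Of the Cd200r1 TPM, 82.1% ± 2.74 fell on the coding transcript Cd200r1-201, with 28.7, 31.0 and 35.7 TPM, lowest in library 1 and highest in library 3. Cd200r1-203, a model in the nonsense-mediated decay class (the removal of RNAs with an early stop codon), held 15.4% ± 1.74 of TPM and 21.3% ± 2.21 of counts. Its reading frame ends after 120 coding bases, of which the last 56 lie in sequence that Cd200r1-201 lacks (chr16:44785210-44785265, plus strand, exonic). They are shown as coding sequence that the leading transcript lacks, after which the frame ends.
Cd200r1-203: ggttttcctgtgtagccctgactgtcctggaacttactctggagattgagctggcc
The expected counts of Cd200r1 were not whole, so some of its reads were shared with other genes. Of its 3 relatives on the same stretch of chromosome 16, Cd200r4 was detected at 9.22 ± 2.00 TPM, also with shared reads. Cd200r3 had 0.777 ± 0.305 TPM and Cd200r2 0.0333 ± 0.0577. Mast cells and basophils also carry CD200 receptors, and their 5 markers summed to 1.86, 1.97 and 3.64 TPM with 1 detected (Kit). The 9 macrophage and monocyte markers summed to 69.55, 65.85 and 67.23 TPM with 7 detected. For the 7 B cell markers the sums were 57.1, 44.5 and 45.5 TPM with 5 detected. Those of the 3 endothelial markers were 0.11, 0.11 and 0.31 TPM with 0 detected. The part of any of these cell types in the Cd200 and Cd200r1 levels was not tested.

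**Figure D3:**
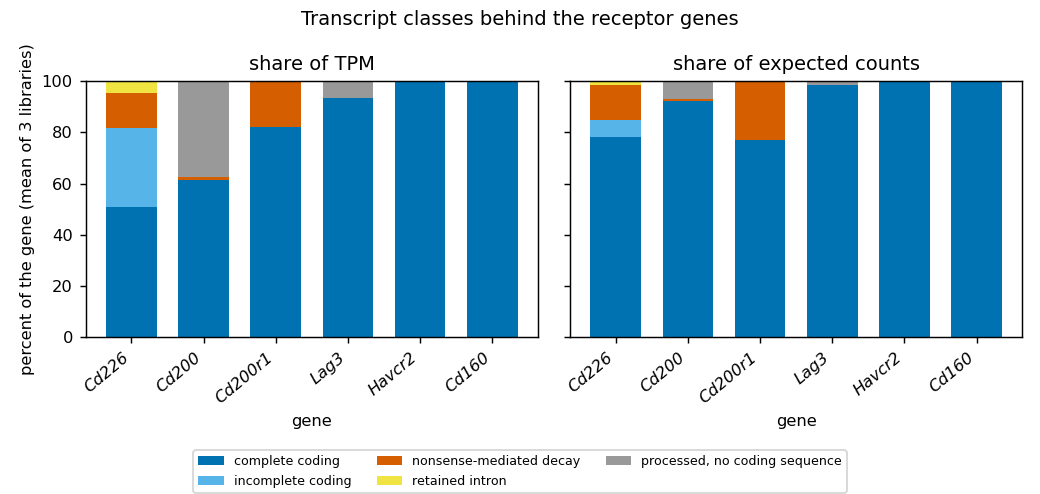
Share of each gene held by classes of transcript, as percent of TPM (left) and of expected counts (right), means of 3 libraries. Complete coding transcripts hold 50.7% of Cd226 TPM against 78.3% of its counts, and 61.2% of Cd200 TPM against 92.2% of its counts, while Cd200r1 differs little between the panels at 82.1% and 77.1%.

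Of the members, 4 (Tigit, Cd200r1, Cd200 and Cd96) lie within 2.47 Mb of chromosome 16 in that order. They also hold 4 of the 5 highest gene TPM values of the set, the remaining one being Cd226. Over complete coding transcripts Pvrig (32.8 TPM) took the place of Cd200r1 (31.8 TPM) among those 5, by a difference within the spread. Neighbours in the order that did not differ beyond the spread on gene TPM were Tigit and Cd226, Cd226 and Cd200 (0.05 ± 0.09 log2 units), Cd200r1 and Pvrig (0.24 ± 0.19), and Lag3 and Cd160. Without library 3 Cd226 exceeded Cd200 by 0.10 ± 0.01, and without library 1 Cd200r1 exceeded Pvrig by 0.34 ± 0.08, both beyond the spread. The first and last places, Cd96 and Havcr1, were the same under every measure and with each library left out. By coding measures Cd200 passed Cd226, with a Cd226 to Cd200 log2 ratio of -0.23 ± 0.09 over complete coding transcripts and -0.63 ± 0.06 over the leading coding length.

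All 10 signalling partners on the list were detected, beside 47.3% of protein-coding genes. The list was chosen with earlier results of these data known, so that count is not an independent result. The kinase genes Lck (1161 ± 9.21 TPM) and Fyn (374 ± 18.1 TPM), which phosphorylate receptor tails, were the highest. Ptpn6, which encodes the phosphatase SHP-1, had 240 ± 19.7 TPM, against 21.5 ± 2.58 for Ptpn11, which encodes SHP-2. Grb2 (233 ± 6.87 TPM) and the lipid phosphatase gene Inpp5d (169 ± 4.67 TPM), both tied to the Tigit tail, were abundant. Of the genes for Cd200r1 signalling, Dok2 had 166 ± 12.6, Rasa1 78.9 ± 3.95 and Dok1 45.1 ± 2.93 TPM. Bag6, which binds the Havcr2 tail, had 49.28 ± 4.002 TPM.

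All 10 genes on the list of regulators tied to co-inhibitory receptor expression, chosen in the same way, were detected as well. The interleukin 27 receptor gene Il27ra (258 ± 7.74 TPM) and the transcription factor genes Batf (231 ± 5.73) and Foxp3 (135 ± 2.65) led. Tox (70.0 ± 0.937), Maf (61.4 ± 4.82) and Prdm1 (46.2 ± 2.70), factors known to raise several of these receptors together, lay above Lag3 and Havcr2. Tbx21 had 42.3 ± 2.80, Nfil3 29.9 ± 0.769, Irf4 28.3 ± 1.48 and Eomes, the lowest, 1.85 ± 0.489 TPM. All 8 genes on the regulatory T cell marker list were detected, with a median of 392 TPM. The list includes the general T cell genes Cd3e (1274), Cd3g (1210) and Cd3d (799), and Cd4 (394 TPM). The others were Ikzf2 (389), Ctla4 (389), Il2ra (317) and Foxp3 (135 TPM). The median is thus not a measure of regulatory T cell identity.

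**Figure D4:**
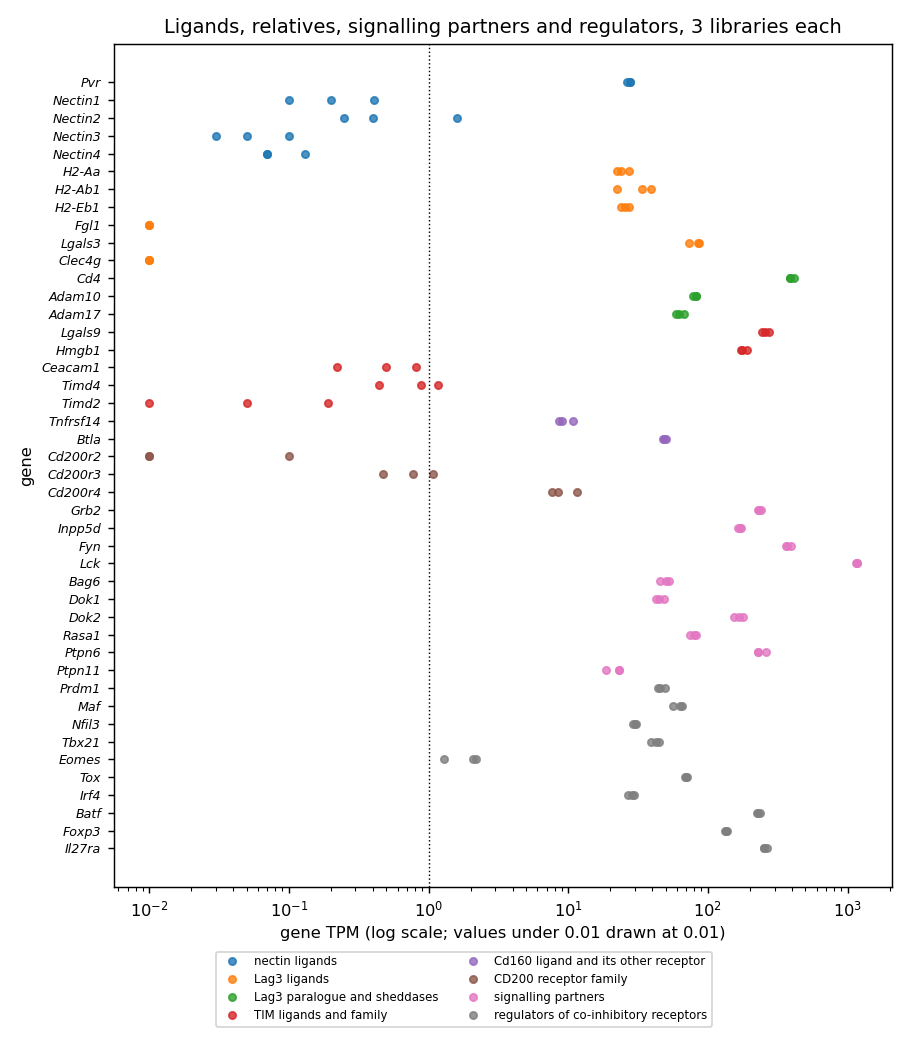
Gene TPM (log axis) of ligands, relatives, signalling partners and regulators, with 3 points per gene for the 3 libraries and colours for the lists. The dotted line marks 1 TPM, and 1 of 5 nectin ligand genes lies to its right in every library against 10 of 10 signalling partners and 10 of 10 regulators. The lists were chosen with earlier results of these data known.

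The technical libraries were compared by testing each gene's expected counts for equal shares of the library totals (chi-square, Benjamini-Hochberg adjusted over 15945 genes). Of the 9 members tested, 6 were called, where 65.8% of all genes were called, so the share among the members is close to the background. Havcr2 departed most, with library 3 at 18.2% above its equal share and libraries 1 and 2 at -12.1% and -9.14% from theirs (chi-square adjusted p = 1.39e-11). Library 2 was 17.7% above for Lag3 (chi-square adjusted p = 0.00257) and -8.09% from its share for Cd96 (chi-square adjusted p = 2.24e-10). Library 1 was low for Cd226 at -11.8%, for Cd200r1 at -9.60% and for Cd200 at -7.45%. Tigit (chi-square adjusted p = 0.143), Pvrig (0.177) and Cd160 (0.228) were not called. The test was also run with the variance shared by all genes included (edgeR common dispersion, a coefficient of variation of 19.8%). It called 0 members and 5.44% of all genes, and 0 members had an unadjusted p under 0.05. That dispersion was estimated from the same 3 libraries, so it takes in the library differences under test. The 0 calls therefore cannot show that the libraries are alike in these genes.

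In the smaller gene table, which holds 9 of the 10 genes but not Pvrig, 3 of 8 tested members were called, Havcr2, Lag3 and Cd200r1. Of the 11469 genes tested there 33.5% were called, so the share among the members is close to the background. Library 3 was again high for Havcr2, at 16.6% above its share, and for Cd200r1, at 9.87%, and library 2 for Lag3, at 15.2%. The called number in the larger table was 3, 4 and 5 without libraries 1, 2 and 3 in turn. These tests compare reads of libraries from 1 biosample, where reads carry no molecular identifier and may repeat a molecule.

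**Figure D5:**
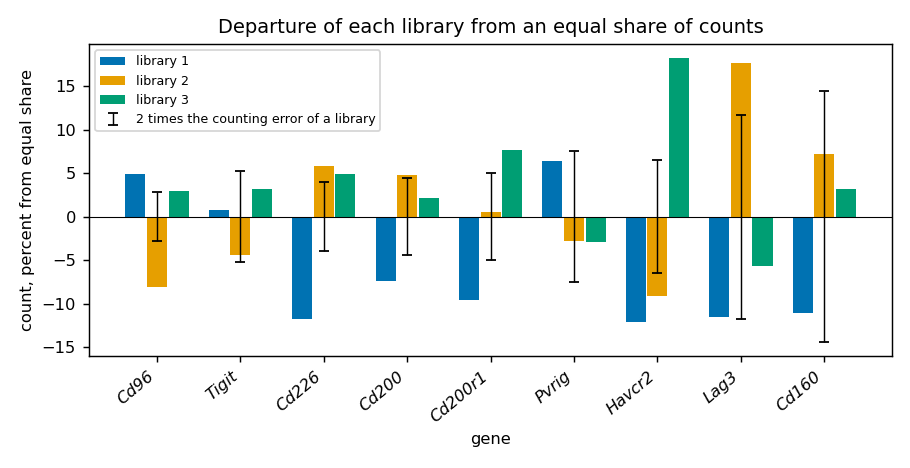
Departure of each library from an equal share of expected counts, in percent, for the 9 genes with counts. Whiskers centred on 0 span 2 times the counting error of a library, and library 3 of Havcr2 (18.2%) and library 2 of Lag3 (17.7%) reach beyond them while every bar of Tigit, Pvrig and Cd160 stays inside.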

How the data were processed

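Per the file headers and notes, the authors deposited for each library a gene table and a transcript table made on mm10 with GENCODE M21, holding expected counts, TPM and FPKM, and a smaller gene table of whole-number counts made on mm10 with GENCODE M4. The sources used here name no aligner or counting program. The deposited gene tables also give a posterior mean TPM and its lower and upper credibility bounds (signal), used for a check alone. Whether counting used strand is not given. Lengths exceed effective lengths by 49 bases.

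Of 81881 rows, 55536 annotated genes were used; the others held 0.125% to 0.182% of counts and stayed out of totals and tests. Expected counts were rounded for the chi-square test (2 degrees of freedom, summed count of at least 30, adjusted p under 0.05). It was tried on simulated counts that vary by counting error alone. These libraries vary more (common coefficient of variation of 19.8%), so that trial does not show how the test behaves on them. TMM factors and the common dispersion came from edgeR 4.0.16 and size factors from DESeq2 1.42.0 (R 4.3.3), and the rest from Python 3.11.15, pandas 2.3.3 and scipy 1.17.1. All values per length from the smaller gene table used each gene's length in the larger table, averaged over the libraries. Its counts were unlike shares of the genes' expected counts, given below, and these enter every ratio taken from it. Transcripts were named from 5% of a gene's TPM. Complete coding transcripts are protein-coding models with both ends of the coding sequence annotated. An expected count within 0.005 of an integer was taken as whole. Floors of 3 counts cover counting error only. All 10 members are named, and genes of the fixed partner and marker lists by their detection; no likeness to other genes was computed, because 3 technical libraries hold no pattern across conditions. The members and lists were chosen with earlier results of these data known.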

Additional observations from a re-analysis of the deposited data

How the results depend on the processing

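Of the 11 gene pairs with a ratio, 7 exceeded the spread. All 3 libraries come from 1 animal, so no alternative speaks of animals, and genes at few counts (Lag3, Cd160) rest on 160 to 331 reads. Cd96 and Havcr1 kept the first and last place, and 9 genes were detected, under each alternative run for them.

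With no length correction, Tigit/Cd226 turned to -0.78, Pvrig/Havcr2 went to -0.36 (SD 0.29, within the spread), and Cd226/Cd200 (0.32), Cd200r1/Pvrig (1.16) and Lag3/Cd160 (0.59) came to exceed the spread, as without it longer transcripts give more counts. In the smaller table Havcr2/Lag3 went to -0.41 (SD 0.26, within the spread), Cd200/Cd200r1 (0.12) lost the call, and Tigit/Cd226 (1.14), Cd226/Cd200 (0.12) and Lag3/Cd160 (0.93) gained it; the cause was not tested. By the measures chosen after seeing the data, complete coding transcripts gave Tigit/Cd226 1.25 and Cd226/Cd200 -0.23, and the leading coding length gave 1.57, -0.63, Cd200/Cd200r1 0.02 and Lag3/Cd160 -0.27. Scaling by TMM or DESeq2 size factors and pseudocounts of 0.1 and 1 TPM changed no call on a pair.

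With 1 library left out, the ranges were 0.91 to 1.39 for Havcr2/Lag3, 0.21 to 0.34 for Tigit/Cd226, 0.02 to 0.10 for Cd226/Cd200 and 0.15 to 0.34 for Cd200r1/Pvrig. The first lost its call without library 1 (1.08), and the others gained one without library 2, library 3 and library 1, in that order. Members called different between libraries numbered 3 to 5 (6 in all 3), and genes 6069 to 7265 (10487 in all 3). Of the genes tested, that was 41.1% to 48.6% (65.8% in all 3). The overdispersed test called 0 members and 867 genes (5.44%), and the smaller table called 3 and 3839 (33.5%). The first allows for more variance, which was estimated from these same libraries, and the cause of the second was not tested. No paired analysis was possible because the labels give 1 group.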

Other observations

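The smaller table held very different shares of the members' reads. Lag3 had 214, 283 and 264 counts there, or 89.2%, 85.5% and 87.1% of its expected counts. Havcr2 had 234, 253 and 339, or 30.6%, 30.8% and 27.8%. Cd200 (28.0% to 32.8%) and Cd226 (28.8% to 34.7%) lay near Havcr2, and Tigit (56.1% to 60.0%), Cd96 (46.4% to 53.2%), Cd160 (44.1% to 51.2%) and Cd200r1 (43.3% to 48.7%) lay between. The mean per length of Lag3 was 14.8 and that of Havcr2 11.1 in the smaller table, and their log2 ratio there (-0.41 ± 0.26) was within the spread. Outside the members, Cd3e had 1291, 1282 and 1294 counts there against 36432.64, 36585.63 and 43304.98 expected counts. Gzma had 37, 45 and 45 against 37, 48 and 49. Ratios between genes in the smaller table carry such unlike shares, and their cause was not tested.

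The deposited TPM of several members lay above the deposited upper credibility bound of TPM. This was so in 3 of 3 libraries for Cd96, Tigit and Cd200r1, in 2 for Havcr2 and in 1 for Pvrig. In library 1 Cd96 had 120.5 TPM against bounds of 108.5 and 114.7. Havcr1, at 0 TPM, lay below its lower bound in 3 of 3 libraries. Of 10429 detected protein-coding genes, 38.1%, 35.7% and 33.8% had a TPM above their upper bound in libraries 1, 2 and 3, and 0.681%, 0.748% and 0.681% one below the lower bound. The tables also hold a posterior mean TPM, which lay within the bounds for all 10429 genes and all 10 members in every library (111.5 for Cd96 and 0.17 for Havcr1 in library 1). The bounds thus go with that estimate, and were not used as errors of the levels.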
